A study of Mus musculus with 19 samples.

Results

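The transcripts described here are those of the cytosolic ribosome's proteins and of the factors that start, lengthen and regulate translation, measured in pancreatic islets of 2 mouse strains after culture in low or high glucose. A probe was taken when its gene name on the array began with Rpl or Rps and a digit, which gave 123 probes of 75 ribosomal protein genes, or with Eif and a digit or with Eef, which gave 116 probes of 53 translation factor genes. Kinases of ribosomal protein S6 and Eif2ak3 were left out. Together these were 239 of 41174 probes on the array, or 128 of 29742 gene names. The rule uses names and no measured value, but it was set with earlier results of these data known. The name rule misses Rplp0, Rplp1, Rplp2, Rpsa and Fau, among others, which encode ribosomal proteins under other names.

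Islets came from 12-week-old male C57BL/6 (B6, named C57BL6/J in the series' design) and C57BLKS/J (BLKS) mice, and the labels name no transgene or deletion in either strain. All islets were kept for 48 h in medium with 11 mM glucose and then for 24 h in medium with 5 mM glucose (low) or 20 mM glucose (high). The groups held 5 B6 mice in low glucose, 5 B6 mice in high glucose, 5 BLKS mice in low glucose and 4 BLKS mice in high glucose, each library being made from 1 mouse. RNA of each mouse was labelled with both dyes, and the arrays give log2 signals whose precision is limited by the number of mice.

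A ribosome is built of a small 40S and a large 60S subunit, each made of ribosomal RNA and many small proteins. Initiation factors of the eIF2 and eIF3 groups load the initiator tRNA and the 40S subunit, the eIF4 group brings in the capped mRNA, eIF5 and eIF5B complete the start, and elongation factors carry the ribosome along. In the beta cell, the main cell of the islet, glucose is known to raise translation of insulin, and phosphorylation of eIF2 alpha under stress lowers initiation. Levels of mRNA, as measured here, do not show how fast any of these factors works.

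Many mRNAs of this machinery start with a run of pyrimidines (C or T in the DNA), through which growth signals control their translation. For this reason the DNA around the annotated start of transcription is shown for members on which the results below turn. Each window holds 15 bases before the start and the first 15 from it, read 5′ to 3′ on the gene's strand from RefSeq on GRCm38.p6, and capitals mark the longest unbroken run of C and T.
Rpl27a, chr7:109519180-109519209, + strand: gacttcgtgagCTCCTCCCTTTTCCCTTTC
Rpl36al, chr12:69184053-69184082, - strand: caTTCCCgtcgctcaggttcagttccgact
Rps3a1, chr3:86142654-86142683, - strand: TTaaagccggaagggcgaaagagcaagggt
Rpl5, chr5:107900513-107900542, + strand: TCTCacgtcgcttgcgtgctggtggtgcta
Rpl14, chr9:120571502-120571531, + strand: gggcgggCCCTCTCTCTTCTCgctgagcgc
Rps2, chr17:24720048-24720077, + strand: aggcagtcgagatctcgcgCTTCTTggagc
Eif2b5, chr16:20498802-20498831, + strand: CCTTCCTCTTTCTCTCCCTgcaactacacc
Eif3b, chr5:140419290-140419319, + strand: ctagcggcgcgcggtgaCTTCTgggagtcg
Eif3f, chr7:108934400-108934429, + strand: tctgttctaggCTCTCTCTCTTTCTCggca
The run was 19 bases long at Rpl27a and Eif2b5, 15 at Eif3f and 14 at Rpl14, and it was 6 or fewer at the other 5 genes. A run of 8 or more was present in 23 of 67 annotated starts of ribosomal protein genes (34.3%) and in 13 of 58 of factor genes (22.4%), against 12.0% of 32851 starts of all genes. The member starts belonged to 56 ribosomal protein genes and 42 factor genes, so that not every member gene is covered. A gene with several starts was counted at each of them. A run was counted wherever it lay in the window, also where it did not cover the start. These are therefore not shares of mRNAs that begin with such a run. How the length of the run relates to the response to glucose was not tested.

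Probes of ribosomal proteins gave some of the brightest signals on the arrays. Of the 120 of 123 probes that were well above background in at least 4 mice and so were tested, 100 lay in the brightest 10% of all probes tested. Their mean log2 signal ran from 5.98 to 15.18 with a median of 12.67, against a median of 6.96 over all 29326 tested probes. The 109 tested factor probes (7 were too dim) were more spread, from 6.01 to 15.15 with a median of 8.40, and 33 lay in the brightest 10%. No member spot was saturated. Probes differ in how well they bind, so that these signals do not rank genes by copy number. The signals were not background-subtracted, and a probe near 6 lies close to the level of the negative control spots, where a difference on the log2 scale understates the change.

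Before any comparison of strains, 2 libraries need to be named. The library labelled BLKS low glucose 5 and the one labelled B6 low glucose 4 went against their strain label. On a scale of 106 probes that differed between the strains in high glucose, set so that B6 mice in high glucose average 0 and BLKS mice 1, they read -0.05 and 1.01, while the other B6 mice in low glucose read -0.06 to 0.02 and the other BLKS mice 0.93 to 1.01. Labels were kept as given. The glucose comparison averages the difference over both strains, so that its size would not change if these 2 labels were exchanged, while the strain comparison in low glucose is given with and without both libraries. As a check of the tissue, the summed signal of 10 beta-cell marker genes was 17.74 to 18.08 on the log2 scale in all mice, and that of 12 acinar marker genes was 11.10 to 11.82.

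The first comparison asks which members differed between high and low glucose over both strains. The ribosomal proteins split: 34 of 120 probes differed, 16 higher and 18 lower in high glucose, with a median log2 difference of -0.01 over all 120. The translation factors leaned upwards: 41 of 109 probes differed, 28 higher and 13 lower, with a median of 0.06. Over all 29326 probes the same test called 22.3% (10.9% higher and 11.4% lower) with a median of -0.004 (limma, Benjamini-Hochberg adjusted p under 0.05). The share called was thus 28.3% for ribosomal proteins and 37.6% for factors, but bright probes were called more often. Of the 2933 brightest probes 48.2% were called, against 28 of the 100 ribosomal protein probes and 14 of the 33 factor probes among them. Brightness was not matched within these probes, and no difference in the share called was tested. All changes were small, the largest being 1.32-fold for a ribosomal protein and 1.26-fold for a factor, and the median size among called probes was 0.15 on the log2 scale in both classes.

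Each called member pointed the same way in B6 and in BLKS mice when the strains were fitted apart, 34 of 34 and 41 of 41 probes, although the choice of probes by their mean over the strains favours this. The split between higher and lower depended on the scaling of the arrays to each other. Without scaling, 11 ribosomal protein probes were higher and 8 lower, and 7 factor probes were higher and 15 lower. In the authors' table of log2 values 6 ribosomal protein probes were higher and 4 lower, and 7 factor probes were higher and 4 lower. There 1093 of all probes were higher and 2292 lower. The median difference of the factors stayed above that of all probes in each case, 0.04 against -0.02 in both of these. None of the 75 called probes changed sign under any scaling tried. The main fit holds no term for shared arrays, which leaves its glucose standard errors too small where mice sharing them vary together. When the shared arrays entered the fit as a random block, 24 ribosomal protein probes (12 higher, 12 lower) and 21 factor probes (15 higher, 6 lower) were called. Whichever single library was left out, 25 of the 41 called factor probes stayed called, against 26 of the 34 called ribosomal protein probes.

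**Figure D1:**
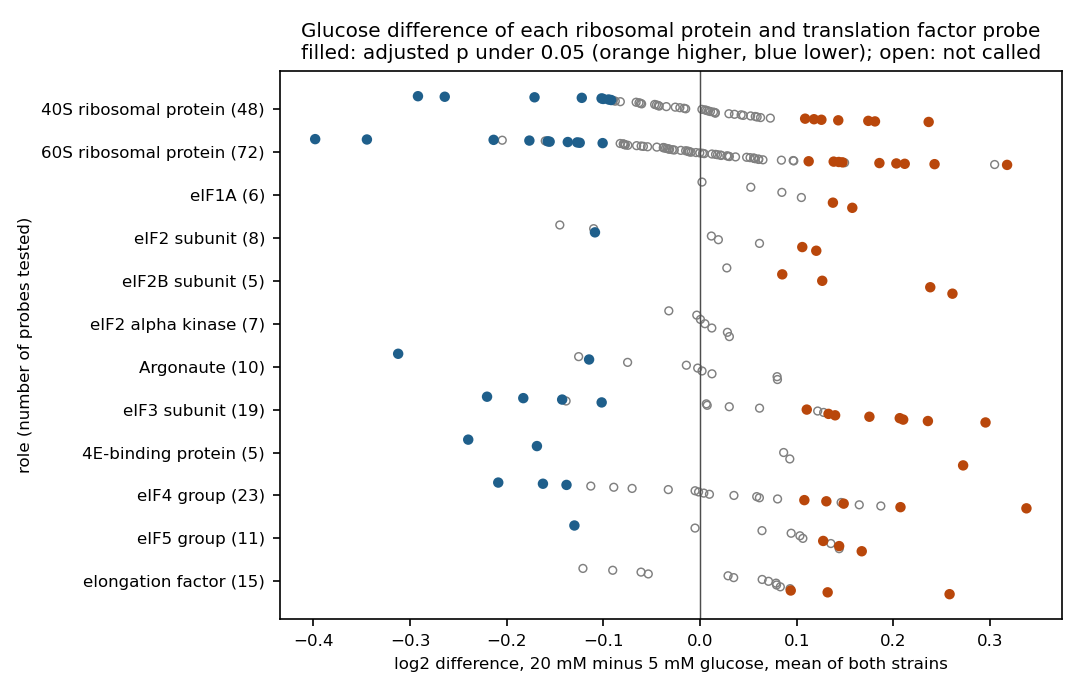
Log2 difference between 20 mM and 5 mM glucose (horizontal axis, mean of both strains) for every tested probe, grouped by role (vertical axis, number of probes tested in brackets), with filled points where limma's adjusted p was under 0.05. The 40S and 60S proteins spread to both sides of 0, while 4 of 5 eIF2B probes and 8 of 19 eIF3 probes are filled to the right.

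Among the ribosomal proteins of the 60S subunit, 9 of 72 probes were higher and 10 lower in high glucose, and among those of the 40S subunit 7 of 48 were higher and 8 lower. Rpl36al, a copy of Rpl36a, showed the largest rise. Its log2 signal in B6 mice was 11.24, 11.20, 11.09, 11.39 and 11.12 in low glucose and 11.52, 11.65, 11.54, 11.43 and 11.68 in high glucose. In BLKS mice it was 11.37, 11.36, 11.41, 11.48 and 11.24 in low glucose and 11.69, 11.82, 11.48 and 11.60 in high glucose. Within each strain every mouse in high glucose lay above every mouse in low glucose, and the difference was 0.32 ± 0.05 (SE), or 1.25-fold (adjusted p = 0.000105). Of its relative Rpl36a, on the X chromosome, 1 of 3 probes was higher, by 0.19 ± 0.02 (adjusted p = 2.75e-05), again without overlap in either strain. The other 2 pointed the other way without a call (-0.08 ± 0.04 and -0.07 ± 0.04), so that the probes of this gene disagreed.

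Rpl27a, whose start carries a run of 19 pyrimidines, was higher by 0.24 ± 0.04 (adjusted p = 6.81e-05). The mean ± SD rose from 9.91 ± 0.05 (n = 5) to 10.18 ± 0.11 (n = 5) in B6 mice and from 9.80 ± 0.07 (n = 5) to 10.02 ± 0.06 (n = 4) in BLKS mice, without overlap. Also among the largest rises were Rps27l (0.24 ± 0.05, adjusted p = 0.00116), 1 of 2 probes of Rpl7l1 (0.21 ± 0.04, adjusted p = 0.000537) and Rpl31 (0.20 ± 0.05, adjusted p = 0.00349). Rps27l and Rpl7l1 are diverged copies of ribosomal protein genes, and Rps27l is known as a target of p53. Their standard counterparts gave no call: Rps27 differed by -0.09 ± 0.03 (adjusted p = 0.0559), and the 3 probes of Rpl7 by -0.03 to 0.07. The difference between a copy and its counterpart was not tested. Neither Rpl3l, the muscle form of Rpl3, nor Rpl3 was called (0.02 ± 0.02 and -0.04 ± 0.04), and the same held for Rpl39.

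The falls were led by Rpl5, which binds 5S ribosomal RNA. Its brighter probe read 12.77, 13.20, 12.95, 12.92 and 12.98 in B6 mice in low glucose and 12.78, 12.54, 12.83, 12.52 and 12.16 in high glucose. In BLKS mice it read 12.95, 13.11, 12.82, 12.88 and 12.87 in low glucose and 12.60, 12.35, 12.70 and 12.45 in high glucose. The groups overlapped in B6 and were apart in BLKS, and the difference was -0.40 ± 0.08 (adjusted p = 0.000996). The dimmer probe of Rpl5, at 7.36 in B6 mice in low glucose, was higher by 0.11 ± 0.04 (adjusted p = 0.0414), so that the 2 probes of this gene disagreed and no direction can be given for it. The dimmer probe's call was lost without any 1 of 12 libraries (limma adjusted p of 0.0503 to 0.0879), while the brighter probe kept its call whichever was left out. Rpl5 was the 1 ribosomal protein gene of 34 with several tested probes that was called both ways.

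Rps3a, now named Rps3a1, fell on both of its probes. One probe read 12.34, 12.34, 12.47, 12.27 and 12.36 in B6 mice in low glucose and 12.05, 11.95, 12.09, 12.17 and 11.90 in high glucose. In BLKS mice it read 12.14, 12.24, 12.32, 12.23 and 12.29 in low glucose and 11.93, 11.84, 12.13 and 12.04 in high glucose. No mouse in high glucose reached the level of any mouse of its strain in low glucose, with a difference of -0.29 ± 0.04 (adjusted p = 5.46e-05), and the other probe differed by -0.26 ± 0.04 (adjusted p = 4.37e-05).

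Rpl21 was lower on its brighter probe (-0.34 ± 0.10, adjusted p = 0.0134), as was Rpl9 (-0.18 ± 0.05, adjusted p = 0.00947). Of the 2 Rpl22 probes the dimmer one was lower (-0.21 ± 0.07, adjusted p = 0.0394). That call was lost without any 1 of 13 libraries, 7 of them in high glucose, with adjusted p of 0.0511 to 0.0923, and under the random block for shared arrays (adjusted p = 0.15). The remaining 12 falls ran from -0.17 for Rps14 to -0.09 for Rps24, and both probes of Rpl35a, at -0.16, were among them. Rps6, the protein phosphorylated by S6 kinase, fell on a probe at background level (-0.09 ± 0.02), while its bright probe differed by -0.04 ± 0.04. Of all 34 called ribosomal protein probes, 26 stayed called whichever single library was left out. In 5 of the 34 genes with several tested probes all probes were called, and in 16 at least 1 was.

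**Figure D2:**
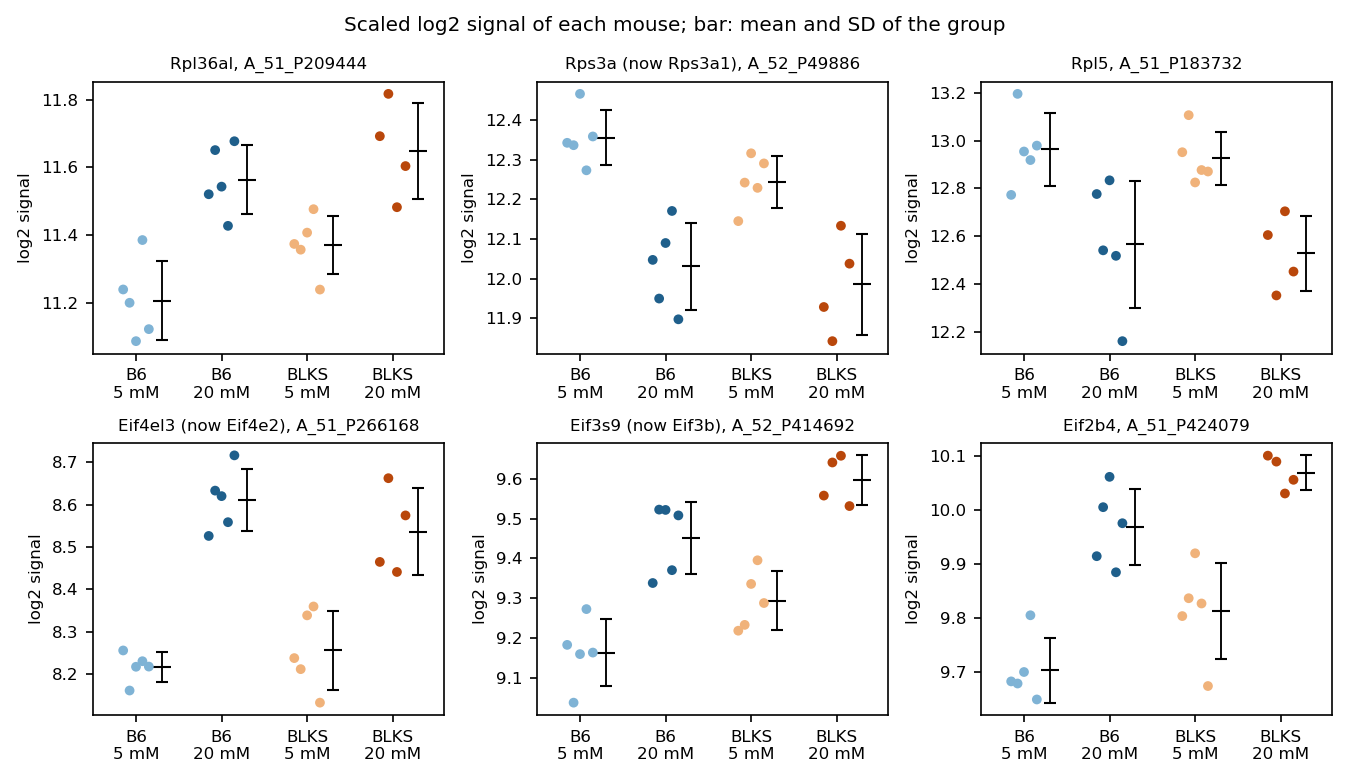
Scaled log2 signal (vertical axes) of each mouse (points) in the 4 groups of strain and glucose (horizontal axes) for 6 probes, with the mean and SD of each group. In high glucose Rpl36al, Eif4e2, Eif3b and Eif2b4 sit higher and Rps3a1 sits lower without overlap within a strain, while Rpl5 overlaps in B6 mice.

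No ribosomal protein outside the name rule was called lower. Of 15 probes of 7 such genes 4 were called and all were higher, among them 2 of Rplp0, the core of the ribosome's stalk, by 0.17 and 0.19.

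Among the factors, the called probes of the eIF2B complex all pointed one way. This complex recharges eIF2 with GTP after each start and is the target of inhibition when eIF2 alpha is phosphorylated. Of its 5 tested probes 4 were called, all higher in high glucose, and the remaining one, for Eif2b2, differed by 0.03 ± 0.03. Eif2b4, the delta subunit, read 9.68, 9.68, 9.70, 9.81 and 9.65 in B6 mice in low glucose and 9.91, 10.01, 10.06, 9.88 and 9.98 in high glucose. In BLKS mice it read 9.80, 9.84, 9.92, 9.83 and 9.67 in low glucose and 10.10, 10.09, 10.03 and 10.06 in high glucose. The groups did not overlap within a strain, and the difference was 0.26 ± 0.03 (adjusted p = 1.04e-05), with 0.13 ± 0.03 on its dimmer probe. Eif2b5, the catalytic epsilon subunit, was higher by 0.24 ± 0.03 (adjusted p = 4.83e-05) and Eif2b1, the alpha subunit, by 0.09 ± 0.03 (adjusted p = 0.0272).

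Of its substrate eIF2, 3 of 8 probes were called, 2 higher and 1 lower. Without scaling between arrays 0 were higher and 3 lower, and in the authors' table none was called. Eif2s1, the alpha subunit that carries the regulatory phosphorylation site, was higher on both probes, by 0.11 ± 0.03 and 0.12 ± 0.04. Neither probe of Eif2s2, the beta subunit, was called. The gamma subunit has an X-linked and a Y-linked gene: 1 of 3 Eif2s3x probes was lower (-0.11 ± 0.04), and Eif2s3y differed by -0.15 ± 0.05 (adjusted p = 0.0519). Of the kinases that phosphorylate Eif2s1, no probe of Eif2ak1 (the haem-regulated kinase) or Eif2ak4 (the amino acid sensor) was called among 7, and all 7 differences lay between -0.03 and 0.03. Not 1 of them had an unadjusted p under 0.05. Of eIF1A, which helps the 40S subunit scan, 2 of 6 probes were called, both higher, and neither without scaling.

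The eIF3 complex, the large scaffold on the 40S subunit, had more called probes than any other group of factors, 12 of 19, and its subunits went both ways. Eif3b (Eif3s9 on the array), Eif3g, Eif3i, Eif3d, Eif3a and Eif3j1 were higher on 8 probes in all, and Eif3f, Eif3h and Eif3e were lower on 4. Eif3b showed the largest rise, 0.30 ± 0.04 (adjusted p = 1.03e-05). Its values in B6 mice were 9.18, 9.04, 9.16, 9.27 and 9.16 in low glucose and 9.34, 9.52, 9.52, 9.37 and 9.51 in high glucose. In BLKS mice they were 9.22, 9.23, 9.34, 9.40 and 9.29 in low glucose and 9.56, 9.64, 9.66 and 9.53 in high glucose, again apart in both strains. Its brighter probe rose by 0.13 ± 0.04 (adjusted p = 0.0328). Eif3g, an RNA-binding subunit, was higher by 0.24 (0.24 ± 0.03, adjusted p = 2.12e-05).

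Eif3f was the eIF3 subunit that fell most, with -0.22 ± 0.05 over both strains (adjusted p = 0.00156). Its difference was -0.33 ± 0.06 in B6 mice and -0.11 ± 0.07 in BLKS mice, where the groups overlapped, and the interaction was not called. These values keep the 2 doubtful libraries under their labels. With both left out the interaction was 0.27 ± 0.09 and was not called either (limma adjusted p = 0.58). Eif3e fell on both probes (-0.18 ± 0.04 and -0.10 ± 0.03) and Eif3h on its single probe (-0.14 ± 0.03). The 4 probes of Eif3c ranged from -0.14 to 0.13 and the single probe of Eif3l differed by 0.01 ± 0.04, none being called. Without scaling between arrays 2 of the 19 eIF3 probes were called higher and 4 lower, and 2 of the 5 eIF2B probes higher. For Eif3a the called probe is the dim one (0.14 ± 0.03, at 7.86 in B6 mice in low glucose) and the brighter probe differed by 0.01 ± 0.02.

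**Figure D3:**
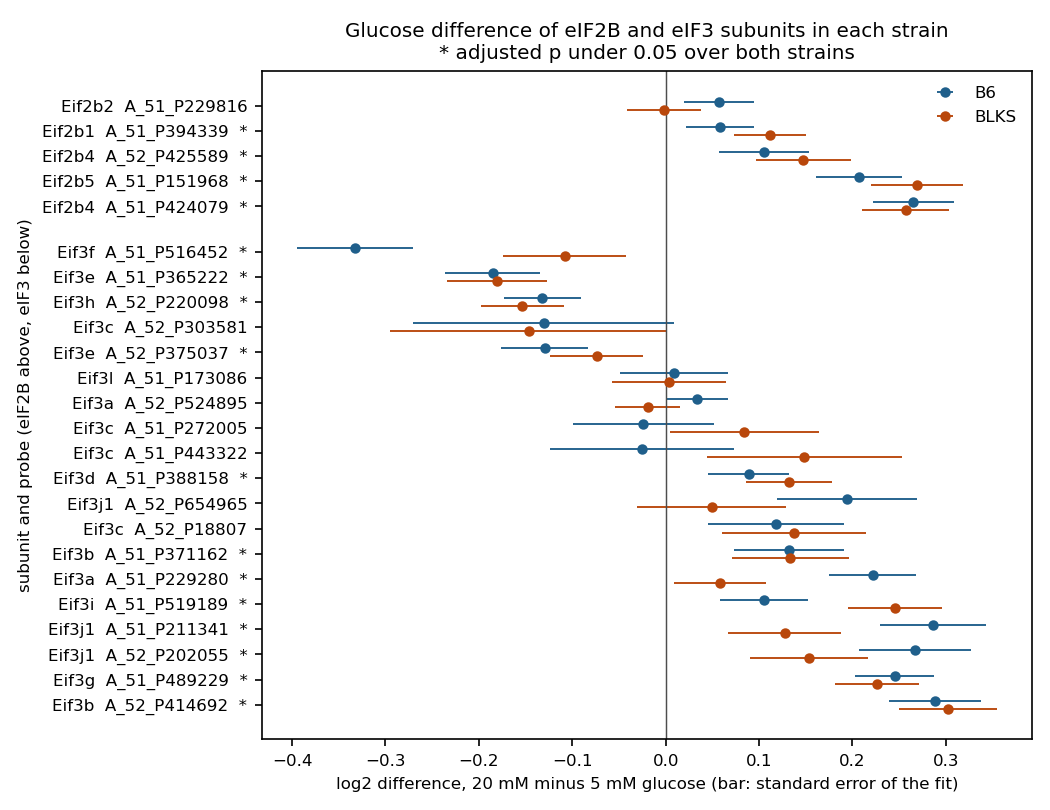
Log2 difference between 20 mM and 5 mM glucose (horizontal axis, with the standard error of the fit) in B6 and in BLKS mice for each probe of eIF2B and eIF3 (vertical axis, current symbols), with a star where limma's adjusted p over both strains was under 0.05. The Eif2b4, Eif3g and Eif3b probes with the largest rises agree closely between strains, and Eif3f differs by -0.33 in B6 and -0.11 in BLKS mice. The 2 libraries that go against their strain label are kept as labelled.

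Of the cap-binding group, 8 of 23 probes were called, 5 higher and 3 lower (2 and 2 without scaling). The largest change of any factor was in Eif4e2 (Eif4el3 on the array), a cap-binding relative of eIF4E that is known to repress rather than start translation of its mRNAs. It read 8.26, 8.16, 8.22, 8.23 and 8.22 in B6 mice in low glucose and 8.53, 8.63, 8.62, 8.56 and 8.72 in high glucose. In BLKS mice it read 8.24, 8.21, 8.34, 8.36 and 8.13 in low glucose and 8.46, 8.66, 8.44 and 8.57 in high glucose. The rise of 0.34 ± 0.04, or 1.26-fold, was without overlap in either strain (adjusted p = 2.69e-06). Another Eif4e2 probe rose by 0.21 ± 0.03, and 2 dim ones, at 6.06 and 6.21, were not called. Eif4e itself was not called on either probe (0.16 ± 0.06 and 0.00 ± 0.05). Of the scaffolds, Eif4g1 was higher by 0.15 on its brighter probe, both Eif4g3 probes were higher by 0.11 and 0.13, and no probe of Eif4g2 was called. Eif4b, a cofactor of the eIF4A helicase, was lower on 2 of 3 probes (-0.21 ± 0.05, adjusted p = 0.00984, and -0.16 ± 0.06), as was the helicase Eif4a2 on 1 of 2 (-0.14 ± 0.04). The 3 probes of its paralog Eif4a1 ranged from -0.07 to 0.19 without a call.

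The proteins that sequester eIF4E moved in opposite directions. Eif4ebp3 was lower in high glucose on both probes (-0.24 ± 0.06, adjusted p = 0.00487, and -0.17 ± 0.05, adjusted p = 0.0118), with overlap in both strains, and the second of these was not called under the random block for shared arrays (adjusted p = 0.13). Eif4ebp2 differed by 0.09 ± 0.03 (adjusted p = 0.0519). Eif4ebp1 was higher on its bright probe by 0.27 ± 0.09 (adjusted p = 0.0357). Its values in B6 mice were 11.03, 11.04, 10.85, 11.65 and 10.91 in low glucose and 11.50, 11.34, 11.31, 11.44 and 11.46 in high glucose. In BLKS mice they were 11.60, 11.49, 11.49, 11.47 and 10.99 in low glucose and 11.64, 11.71, 11.57 and 11.63 in high glucose. The B6 value of 11.65 and the BLKS value of 10.99 belong to the 2 libraries that go against their strain label. With both left out the rise was 0.29 ± 0.04 (adjusted p = 1.75e-05), while the other Eif4ebp1 probe differed by 0.10 ± 0.04 without a call (adjusted p = 0.1). With all mice kept, the call was lost without any 1 of 11 libraries (adjusted p of 0.0515 to 0.0692) and under the random block for shared arrays (adjusted p = 0.16).

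Of eIF5, eIF5A and eIF5B 4 of 11 probes were called, 3 higher and 1 lower (0 and 1 without scaling). Higher were 1 of 2 probes of Eif5, the GTPase activator of eIF2, 1 of 2 of Eif5a and 1 of 5 of Eif5b, by 0.13, 0.17 and 0.14. The Eif5 call was lost without any 1 of 14 libraries (limma adjusted p of 0.0505 to 0.0966). Those of Eif5a and Eif5b were each lost without any 1 of 12 (0.0546 to 0.0932 and 0.053 to 0.0924). Eif5a2, the tissue-restricted paralog of Eif5a, was lower on 1 of 2 probes (-0.13 ± 0.04, adjusted p = 0.0258). Among the members named Eef, grouped here as elongation factors, 3 of 15 probes were called, all higher (1 without scaling). They were 1 of 2 of Eef1g by 0.26 ± 0.04 (adjusted p = 0.000131), Eef1e1 by 0.13 and Eef1b2 by 0.09. The name alone sets this group, and not every gene in it encodes an elongation factor. The dim Eef1g probe differed by -0.05 ± 0.03 without a call. Eef1g and Eef1b2 belong to the exchange complex of eEF1A, and the bright Eef1g probe read 13.73 ± 0.08 and 13.93 ± 0.09 in B6 mice (SD, n = 5 and 5) and 13.68 ± 0.08 and 13.99 ± 0.11 in BLKS mice (n = 5 and 4), without overlap. The other Eef members gave no call. Among them were Eef1a1, which brings the charged tRNA, its tissue-restricted form Eef1a2 and Eef1d. Eefsec, the factor for selenocysteine, Eef2, which moves the ribosome along, and its kinase Eef2k were the rest.

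The rule on names also takes Eif2c1 to Eif2c4, now Ago1 to Ago4, which encode Argonaute proteins of microRNA silencing rather than initiation factors. Of their 10 tested probes 2 were called, both of Ago4 and both lower (-0.31 ± 0.09, adjusted p = 0.0173, and -0.11 ± 0.04, adjusted p = 0.0453). Without Argonautes the factors stand at 39 of 99 probes called, 28 higher and 11 lower.

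Genes of neighbouring processes were taken from lists. Of 38 tested probes of 20 cytosolic aminoacyl-tRNA synthetase genes, which charge tRNAs, 15 were called and all 15 were higher, with a median of 0.12 over the list. They were led by Hars (0.43 ± 0.05), Kars (0.25 ± 0.04) and Eprs (0.20 to 0.22 on 3 of 4 probes). Without scaling between arrays 3 of the 38 were called, all higher, with a median of 0.07. Of 34 probes of the integrated stress response, the programme set off by phosphorylated eIF2 alpha, 10 were higher and 1 lower (median 0.11; 6 and 1 without scaling). Nupr1 was higher by 0.73 ± 0.18, Stc2 by 0.58 ± 0.08, Chac1 by 0.41 ± 0.12 and Ppp1r15a, which directs the phosphatase of eIF2 alpha, by 0.34 ± 0.05. Of 47 probes of ribosome biogenesis 7 were higher and 2 lower (median -0.01; 3 and 4 without scaling), with Tsr1 at 0.25 and 0.20, Bop1 at 0.25 and Nop10 at 0.22. Of 32 probes of mTORC1 signalling 3 were higher and 3 lower (median -0.02; 0 and 5 without scaling), with Mknk2, a kinase of eIF4E, at -0.31 ± 0.04, Rragc at -0.27 ± 0.07 on 1 of 2 probes, Tsc1 at -0.16 on 1 of 3 and Rheb at 0.14. Of 23 probes of translation factors outside the name rule 6 were higher and 1 lower (median 0.04; 2 and 1 without scaling), among them Gspt1, the release factor eRF3a, at 0.29 ± 0.06, Pabpc4 at 0.25 ± 0.04 and 1 of 2 probes of the ribosome recycling factor Abce1 at 0.19 ± 0.04. Beside the 10.9% higher and 11.4% lower over all probes these counts are descriptions, and what sets them apart was not tested.

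Markers of cell types moved with glucose too. In high glucose 5 of 12 beta-cell probes were called and all were lower (-0.59 for Ucn3, -0.57 and -0.41 for Slc2a2, -0.25 for Nkx6-1), as were 3 of 14 acinar, 5 of 12 endothelial and 2 of 7 macrophage probes, while 4 of 10 duct probes and 1 of 15 mesenchymal probes were higher. Of 8 other endocrine probes 1 was higher, that of Ttr by 1.02, and 1 was lower. The summed log2 signal of the duct markers ran from 14.45 to 15.23 in B6 and 14.55 to 15.29 in BLKS mice in low glucose and from 14.91 to 15.05 and 15.21 to 15.97 in high glucose. That of the endothelial markers ran from 10.68 to 10.94 and 10.41 to 10.72 in low glucose and from 10.39 to 10.73 and 10.08 to 10.38 in high glucose. Their part in the changes of the members was not tested. Islets are mixed tissue, so that fewer cells of a type and less RNA per cell cannot be told apart.

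The second comparison asks how the strains differed in the same medium. In high glucose, which holds neither of the 2 doubtful libraries, 9 of 120 ribosomal protein probes differed (2 higher and 7 lower in BLKS) and 9 of 109 factor probes (4 higher and 5 lower), against 11.1% of all probes (4.99% higher and 6.12% lower). When the shared arrays entered as a fixed block the counts were 23 and 21, and as a random block 27 and 23. Single libraries move them: without BLKS high glucose 4 they were 5 and 4, without B6 low glucose 4 the ribosomal proteins were 14, and without B6 high glucose 1, 4 or 5 or BLKS high glucose 2 or 3 the factors were 5. Calls that stayed whichever library was left out were 5 and 3.

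Rpl14, a protein of the 60S subunit, stood apart from all other members. It read 7.42, 7.28, 7.29, 7.21 and 7.41 in B6 and 8.53, 8.68, 8.47 and 8.51 in BLKS mice in high glucose, a 2.34-fold difference (1.22 ± 0.24, adjusted p = 0.00531). With both doubtful libraries left out of the fit the difference was the same, with a smaller standard error (1.22 ± 0.06, limma adjusted p = 2.71e-10). The strains did not overlap, and the next largest difference of a member was the -0.38 of Rps2. In low glucose it read 7.07, 7.11, 6.93, 8.20 and 7.01 in mice labelled B6 and 8.25, 8.08, 8.24, 8.38 and 7.02 in mice labelled BLKS. The values 8.20 and 7.02 are those of B6 low glucose 4 and BLKS low glucose 5. Over all low glucose mice the difference was 0.73 ± 0.23 (adjusted p = 0.155), and without both it was 1.21 ± 0.07 (adjusted p = 7.92e-10). This probe was 1 of the 106 that defined the strain scale, and the only member among them, so that it is no separate evidence on those libraries. Rpl14 was not called for glucose (0.30 ± 0.17, adjusted p = 0.212), but it was without both libraries (0.30 ± 0.05, adjusted p = 0.000115).

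Rps2, a 40S protein, was lower in BLKS on 2 of its 3 tested probes. The brightest read 14.44, 14.44, 14.53, 14.38 and 14.42 in B6 and 14.05, 14.05, 14.15 and 13.99 in BLKS mice in high glucose, without overlap (-0.38 ± 0.06, adjusted p = 0.00204). The next differed by -0.31 ± 0.07 (adjusted p = 0.0124) and the third by 0.00 ± 0.05 (adjusted p = 0.986), so that the probes of this gene disagreed. The dim probe of Rpl21 read 6.51, 6.51, 6.55, 6.50 and 6.58 in B6 and 6.23, 6.19, 6.19 and 6.12 in BLKS mice (-0.35 ± 0.07, adjusted p = 0.00762), while its bright probe, lower in high glucose, differed by 0.04 ± 0.14 between strains. Rps23 was lower too (-0.23 ± 0.04, adjusted p = 0.00346). Smaller were Rps12 (-0.18 ± 0.05), whose call was lost without BLKS high glucose 4 (adjusted p = 0.0552), and Rpl27a and Rpl37a (both -0.17 ± 0.05). The calls of Rpl27a and Rpl37a were each lost without any 1 of 11 libraries, with adjusted p of 0.0508 to 0.149 and of 0.0552 to 0.143.

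**Figure D4:**
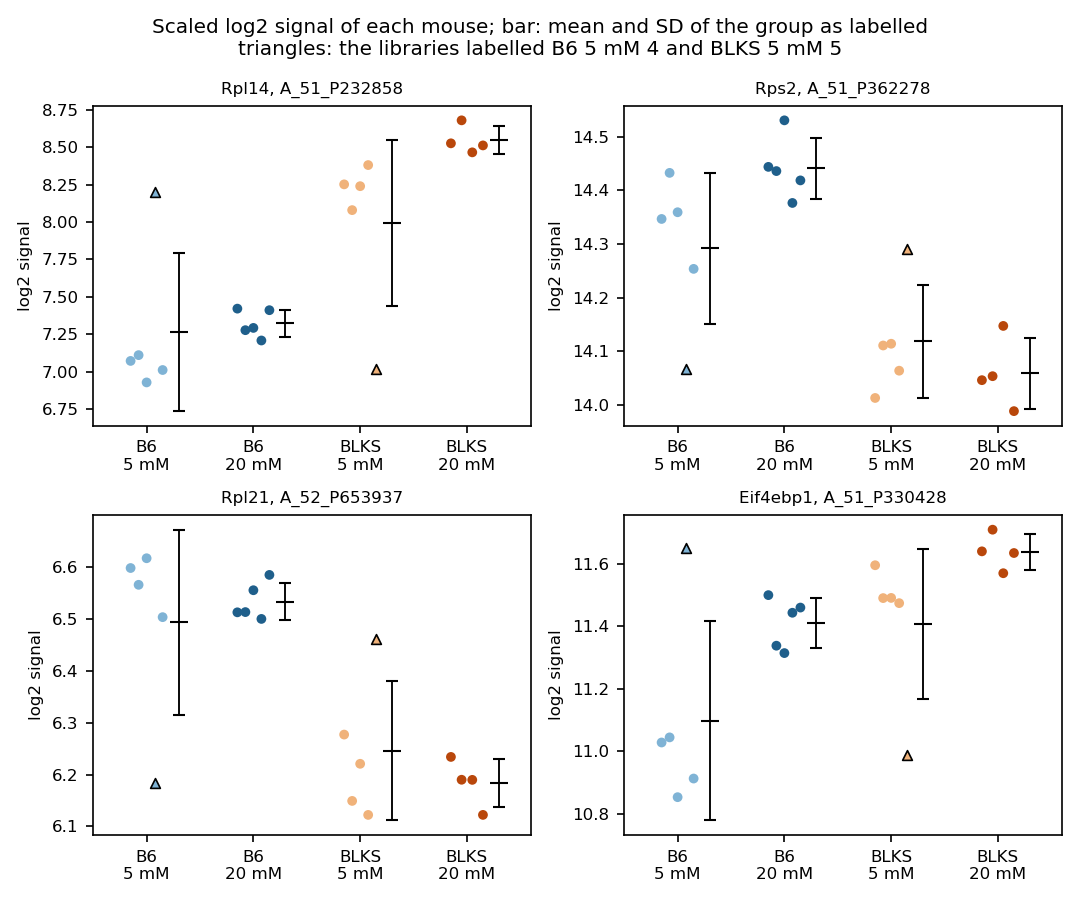
Scaled log2 signal (vertical axes) of each mouse in the 4 groups (horizontal axes) for probes of Rpl14, Rps2, Rpl21 and Eif4ebp1, with the mean and SD of each group as labelled. Triangles mark the libraries that go against their strain label and sit with the other strain, for example at 8.20 (labelled B6) and 7.02 (labelled BLKS) for Rpl14.

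Among the factors, Eif5b, the GTPase that joins the subunits, was lower in BLKS on 1 of 5 probes. That probe read 7.05, 7.10, 7.07, 6.99 and 7.18 in B6 and 6.71, 6.78, 6.80 and 6.76 in BLKS mice (-0.32 ± 0.05, adjusted p = 0.00216), and the other 4 differed by 0.00 to 0.22. Eif3i (Eif3s2 on the array) was higher in BLKS, at 8.72, 8.79, 8.91, 8.80 and 8.74 in B6 and 8.98 to 9.01 in the 4 BLKS mice (0.21 ± 0.05, adjusted p = 0.0128). Ago4 was lower on 1 of 4 probes (-0.24 ± 0.06, adjusted p = 0.014). These 3 kept their call without any single library. The others did not. Eif4a1 (0.36 ± 0.11 on 1 of 3 probes) lost it without any 1 of 12 libraries (adjusted p of 0.0516 to 0.128), and Eif3c (0.26 ± 0.08 on 1 of 4 probes) without any 1 of 7 in high glucose (0.0647 to 0.156). Eif4a2 (-0.21 ± 0.06 on 1 of 2 probes) lost it without any 1 of 7 (0.0572 to 0.122), Eif1ax (-0.19 ± 0.05 on 1 of 2 probes, Eif1ay on the array) without any 1 of 6 (0.0614 to 0.102) and Eif3a (-0.17 ± 0.05 on 1 of 2 probes) without any 1 of 6 (0.0614 to 0.118), all in high glucose. Eef2k (0.20 ± 0.05 on 1 of 2 probes) lost it without B6 high glucose 4 or BLKS high glucose 1 (adjusted p of 0.0614 and 0.0822).

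In low glucose no ribosomal protein or factor probe, and none of all 29326 probes (0%), was called by limma with all libraries under their labels, while 26 ribosomal protein and 27 factor probes had an unadjusted p under 0.05. Without both doubtful libraries 18 of 120 ribosomal protein probes were called (5 higher and 13 lower in BLKS) and 21 of 109 factor probes (11 higher and 10 lower), beside 15.6% of all probes (7.06% higher and 8.57% lower). Leaving out B6 low glucose 4 alone gave 11 and 12 calls, and BLKS low glucose 5 alone 5 and 10. With all libraries kept, a fixed block for shared arrays gave 15 and 12 calls and a random block 26 and 28. The median difference of the ribosomal proteins was -0.05 and that of the factors 0.02 without both libraries, against 0.004 for all probes.

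Low glucose mice are other animals than those in high glucose and can be set beside them. Of the 18 members called in high glucose, 17 had the same sign in low glucose without both libraries, the exception being Eif3a, and 10 were called there. Both Rps2 probes (-0.27 and -0.30), the dim Rpl21 probe (-0.38 ± 0.04, adjusted p = 3.03e-06), Rps23 (-0.16), Eif5b (-0.19), Ago4 (-0.27), Eif4a2 (-0.24), Eif3c (0.26) and Eef2k (0.17) were among these with Rpl14. Without the 2 libraries, the largest strain difference of a factor in low glucose was that of the bright Eif4ebp1 probe. It was higher in BLKS by 0.55 ± 0.05 (1.47-fold, limma adjusted p = 7.34e-07), with a smaller difference in high glucose of 0.23 ± 0.05 (adjusted p = 0.0037). In the same fit the other Eif4ebp1 probe differed by 0.18 ± 0.06 in low and 0.05 ± 0.06 in high glucose. Neither was called (adjusted p = 0.0555 and 0.684). The interaction for the bright probe in that fit was -0.33 ± 0.07 and was not called (adjusted p = 0.14), and with all libraries kept Eif4ebp1 was called in neither medium. Eif4ebp1 was named here after its values were seen.

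**Figure D5:**
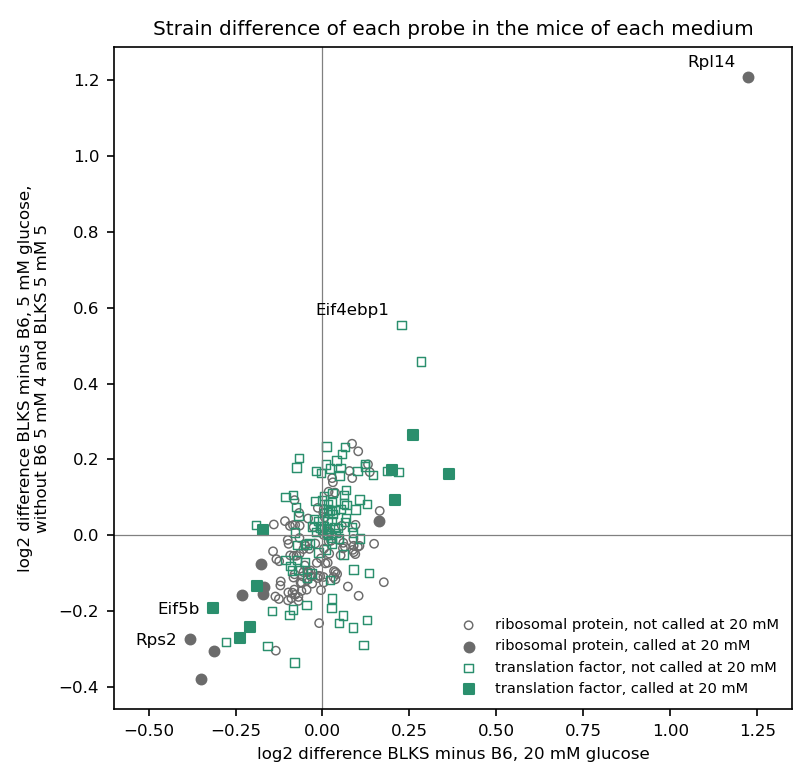
Log2 difference between BLKS and B6 mice in 20 mM glucose (horizontal axis) and in 5 mM glucose without the 2 libraries that go against their strain label (vertical axis), for every tested ribosomal protein (circles) and factor probe (squares), filled where limma's adjusted p in 20 mM glucose was under 0.05. Rpl14 sits alone at 1.22 and 1.21, and the bright Eif4ebp1 probe lies at 0.23 and 0.55.

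Cell type markers differed between the strains in high glucose as well. All 8 called mesenchymal probes of 15 were lower in BLKS (-1.34 and -0.80 for Col1a1, -1.05 for Col1a2, -0.95 for Col3a1), as were 5 of 12 endothelial probes, while 2 of 10 duct and 2 of 14 acinar probes were higher. The summed log2 signal of the mesenchymal markers was 11.97 to 12.91 in B6 and 11.07 to 11.92 in BLKS mice in high glucose. Of the ribosomal proteins outside the name rule, Rpsa was lower in BLKS on 2 probes (-0.38 ± 0.11 and -0.24 ± 0.05). The second of these had a mean log2 signal of 6.09, close to the negative controls. Only 1 of the 15 probes of such genes was called lower without scaling between arrays, and 1 in the authors' table. Of the factors outside the name rule, Paip1, a partner of the poly(A)-binding protein, was higher on 3 probes by 0.52 to 0.67. The part of the cell type markers in these differences was not tested.

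The last comparison, whether the glucose response differed between the strains, gave no call for any member by limma. An unadjusted p under 0.05 was seen for 3 of 120 ribosomal protein probes and 10 of 109 factor probes, and 0.0409% of all probes were called (0.0136% higher and 0.0273% lower). The medians of the interaction were 0.02 and 0.00. Without both doubtful libraries, and with a random block for shared arrays, no member was called either.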

How the data were processed

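Islet RNA of 19 mice was hybridised to 20 2-colour Agilent arrays. Each array carried mice of both strains, except on the pair scanned later, and its partner exchanged the dyes. The intensity values are, per the file headers, processed signals of Agilent Feature Extraction 9.5.3.1 (the submitters' processing notes name 8.1), dye-normalized without background subtraction. The log2 values deposited by the authors are log2 of the mean signals. From the processed signals, log2 was taken, outlier spots were dropped, arrays were scaled together (Aquantile), and spots of a probe and then the arrays and dyes of each mouse were averaged. B6 low glucose 1, on 4 arrays, counted as 1 mouse. The 29326 probes well above background in every channel of at least 4 mice were tested. The flag was passed by 83.9% of negative control spots in Cy3 (median over arrays) and 0.318% in Cy5, so that the Cy5 channel sets this filter.

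Group means were fitted with limma 3.58.1 (R 4.3.3), with Benjamini-Hochberg adjustment over all tested probes and a threshold of 0.05. Tables were made with Python 3.11.15, numpy 2.4.6 and pandas 2.3.3. Errors beside differences are standard errors, and a replicate is a mouse. The script was tested on simulated data. Same-numbered B6 and BLKS mice of a medium share arrays by the labels. Their deviations correlated with r of 0.02 to 0.695 (median 0.482) over 9 pairs, while mice without shared arrays had a median r of -0.007. The main fit has no term for this. Such pairs within 1 medium make its standard errors too small for the glucose difference and too large for strain differences. For each comparison and class the text names up to 6 probes with the largest called differences in each direction, then a set of paralogs and regulators whatever they did, and up to 4 called genes a list. Other members were named by role with their values seen. Members and gene lists were chosen with earlier results of these data known. Alternatives covered scaling, background correction, filter, dye, block, the authors' table and leaving out libraries. A few members and list genes entered the counts and are not reported here by name.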

Additional observations from a re-analysis of the deposited data

Results flagged for a closer look

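In groups of 4 or 5 mice, 8 of 164 checks of the named probes found 1 mouse far from the others of its group, and chance alone gives about 1 in 20. Rpl14 read 8.20 in the library labelled B6 low glucose 4 (others 6.93 to 7.11) and 7.02 in that labelled BLKS low glucose 5 (others 8.08 to 8.38). Eif4ebp1 read 11.65 in the former (others 10.85 to 11.04) and 10.99 in the latter (others 11.47 to 11.60), and the dim Rpl21 probe read 6.18 in the former (others 6.50 to 6.62). These are the libraries that go against their strain label. The bright Rpl21 probe read 12.03 in B6 high glucose 5 (others 12.41 to 12.48). Eif3f read 10.83 in BLKS low glucose 1 (others 10.97 to 11.01). Eif4b read 9.99 in B6 low glucose 5 (others 9.54 to 9.62).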

How the results depend on the processing

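Counts are given for ribosomal proteins and then for factors. Glucose gave 34 and 41 calls. Without scaling between arrays there were 19 and 22, 10 and 11 in the authors' log2 table, with Cy5 alone 24 factor calls, and under a random replicate block for the shared arrays 21 factor calls. Over all probes glucose gave 6531 calls, 5207 without scaling and 3385 in the authors' table. The strain difference in high glucose gave 9 and 9 calls. There were 5 and 1 without scaling, 2 and 1 in the authors' table, 23 and 21 with a fixed and 27 and 23 with a random replicate block, and 22 and 19 under the linear model of the methods, fitted to single dyes. Over all probes this comparison gave 3257 calls, 1571 without scaling and 935 in the authors' table. With both libraries that go against their strain label left out, 15 ribosomal protein probes were called, with Cy3 alone 4 factor probes, and without the later array pair 5 factor probes. The strain difference in low glucose gave no call with limma, but 15 and 12 with a fixed and 26 and 28 with a random replicate block, 29 and 26 under the methods' model, 18 and 21 without both libraries, and 6 factor calls with Cy3 alone. Leaving out each library in turn gave 29 to 38 and 30 to 42 glucose calls, 5 to 14 and 4 to 11 strain calls in high glucose, and 0 to 11 and 0 to 12 in low glucose. The interaction gave 0 calls throughout these. Apart from the pair scanned later, which holds B6 low glucose 1 and B6 high glucose 5, the pairs lie within 1 medium each. B6 low glucose 1 was counted in its first pair, so that a fixed block cannot give the glucose difference. No named probe changed sign under any alternative, and 17 of 41 named results kept their call in all of them. The cause of the changed counts was not tested. The number of mice limits precision, and signals near background understate differences.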
